A study of Mus musculus with 4 samples.

Results

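The 43 genes described here encode the machinery of autophagy and mitophagy, the transcription factors that control lysosome genes, and 2 major proteins of the lysosomal membrane. The members are set by a list of gene symbols, and all 43 were among the 19354 genes of the expression table. Hematopoietic stem cells (HSCs), defined by the surface phenotype LSK (lineage-negative, Sca1-positive, c-Kit-positive) FLT3- CD48- CD150+, were sorted from mice 8 to 16 weeks old, all carrying *Mx1-Cre* and all given pIpC, a synthetic double-stranded RNA, 2 weeks before. *Mx1-Cre* is driven by an interferon-responsive promoter and is turned on by pIpC in many cell types, not in HSCs alone. The *Id2*+/+ mice (14 in all) had 2 unaltered *Id2* alleles and the *Id2*Δ/Δ mice (15 in all) carried *Id2*Fl/Fl, which Cre deletes; cells were pooled within a genotype over 2 experiments. Each genotype gave 2 RNA libraries, named replicates 1 and 2, and the labels do not tie a library to an experiment or to single mice, so the spread between replicates may be partly technical.

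Autophagy delivers cytoplasm and organelles to the lysosome inside a double membrane, the autophagosome. The ULK kinase complex starts the process, a PI3-kinase complex marks the membrane, ATG9 and ATG2 supply lipid, and 2 ubiquitin-like conjugation pathways attach ATG8 proteins (LC3 and GABARAP) to the growing membrane. Mitophagy is the selective removal of mitochondria by the same route. HSCs are known to depend on autophagy and mitophagy to keep few active mitochondria and to stay quiescent, and BNIP3 and BNIP3L, receptors for mitophagy, are known targets of the hypoxia factor HIF-1, which the series title names together with ID2.

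In the comparison of *Id2*Δ/Δ with *Id2*+/+ HSCs, 0 of the 43 genes had an adjusted p-value under 0.05 (limma with Benjamini-Hochberg adjustment), against a background of 0% of the 15895 genes tested. The same fit did not call the deleted gene *Id2* either (adjusted p = 0.910, limma), although each *Id2*Δ/Δ library gave 0 reads of it. The lack of calls therefore does not show that the 43 genes were unchanged. The median log2 fold change over the 43 genes was -0.01, beside 0.01 over all tested genes, and in *Id2*Δ/Δ HSCs 19 of the 43 had a positive and 24 a negative value. Expression of the ATG8 gene *Map1lc3b*, of both LAMP genes and of the mitophagy genes *Bnip3*, *Bnip3l*, *Fundc1* and *Pink1* differed between genotypes by at most 0.10 on the log2 scale. The largest differences were those of *Wipi1*, which encodes a phosphoinositide-binding protein of the early autophagosome, at -0.75, and of *Mitf*, which encodes a transcription factor, at -0.64. Both are thinly expressed, and neither passed the adjusted threshold.

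The promoters below are shown because they belong to the genes on which the account turns: *Lamp1*, the most highly expressed of the 43 per length, *Bnip3*, the HIF-1 target, and *Wipi1*, the gene with the largest difference. Each spans 250 bases before to 50 bases after the start site of RefSeq on GRCm38.p6, 5′ to 3′ on the strand of the gene, at chr8:13158911-13159210 on the plus strand for *Lamp1*, chr7:138909457-138909756 on the minus strand for *Bnip3* and chr11:109611340-109611639 on the minus strand for *Wipi1*. Capitals mark CACGTG, which is the core of the element bound by TFEB, TFE3 and MITF at lysosome genes and also fits other E-box factors; it is its own reverse complement.
Lamp1: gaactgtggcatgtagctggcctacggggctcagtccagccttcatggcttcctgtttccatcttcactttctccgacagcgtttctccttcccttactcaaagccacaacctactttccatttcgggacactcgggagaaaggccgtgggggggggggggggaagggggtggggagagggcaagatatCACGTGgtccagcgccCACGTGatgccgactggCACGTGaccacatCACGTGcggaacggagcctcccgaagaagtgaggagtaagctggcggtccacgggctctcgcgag
Bnip3: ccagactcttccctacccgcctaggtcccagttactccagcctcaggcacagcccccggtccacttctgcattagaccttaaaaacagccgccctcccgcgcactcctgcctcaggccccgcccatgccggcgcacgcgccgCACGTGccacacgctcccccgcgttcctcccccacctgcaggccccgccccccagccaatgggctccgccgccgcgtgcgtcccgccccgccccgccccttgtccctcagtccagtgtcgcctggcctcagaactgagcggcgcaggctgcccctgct
Wipi1: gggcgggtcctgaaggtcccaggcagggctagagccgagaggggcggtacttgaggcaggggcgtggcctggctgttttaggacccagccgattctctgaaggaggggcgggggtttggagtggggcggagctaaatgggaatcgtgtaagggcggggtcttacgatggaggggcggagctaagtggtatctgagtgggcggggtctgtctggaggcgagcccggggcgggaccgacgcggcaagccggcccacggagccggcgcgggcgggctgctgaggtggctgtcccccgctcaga
*Lamp1* held 4 copies of CACGTG, starting at positions -61, -45, -28 and -15 from the start site, and 6 of 27025 genes with a promoter in the RefSeq table (0.0222%) held at least 4. *Bnip3* held 1 copy, at -108, and *Wipi1* held none.

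A promoter was matched for 36 of the 43 genes, and the other 7 were *Atg16l1*, *Pik3c3*, *Rb1cc1*, *Map1lc3a*, *Atg12*, *Becn1* and *Bnip3l*. The 36 genes had 44 windows, since some have several start sites. A gene was counted when any of its windows held the sequence, and the same rule was used for the background genes. Of the 15895 tested genes, 10265 had a promoter, and the shares of tested genes given below are taken over those. CACGTG was found in 6 of the 36 genes (16.7%), namely *Lamp1*, *Bnip3*, *Atg3*, *Atg5*, *Atg7* and *Atg14*, beside 11.7% of the tested genes and 8.09% of all genes with a promoter. Besides *Lamp1*, only *Atg3* among them held more than 1 copy, with 2. A longer form of the element, CACGTG with fixed bases on both sides, was also searched. It was found in 0 of the 36 genes, beside 0.799% of tested genes. A sequence this rare in the background cannot show depletion in 36 genes. ACGTG, the core of the HIF-1 element, searched on both strands and contained in every CACGTG, was found in 17 of the 36 genes (47.2%), beside 29.2% of tested genes. CAGCTG, an E-box that E proteins, the partners of ID2, can bind, was found in 8 (22.2%), beside 17.7% of tested genes. These matches describe the letters in the window and no binding was measured.

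Depth and labels were checked before the genes were compared. From the steps of the low values, the libraries held 14207350 to 18831991 reads, and 3 reads, which a count of 0 still allows, were worth 0.159 to 0.211 counts-per-million (CPM), a floor that covers counting error only. Of the targeted gene *Id2*, *Id2*+/+ replicates 1 and 2 gave 93 and 98 reads, each *Id2*Δ/Δ library gave 0 reads, and the transcript was at least 37.3-fold lower with a floor of 3 reads per library. All 43 genes passed the filter of a mean of at least 1 CPM, with mean levels of 2.96 to 8.63 log2 CPM and a median of 6.05, above the median of 4.76 over all tested genes. The 15 HSC markers summed to 6438 to 6540 CPM in the *Id2*+/+ libraries and to 4852 to 5622 CPM in the *Id2*Δ/Δ libraries, and 9 megakaryocyte markers summed to 417 to 419 and 506 to 511 CPM. By log2 fold change, 10 HSC markers were lower and 5 higher in *Id2*Δ/Δ, and 2 megakaryocyte markers were lower and 7 higher. The HSC list includes *Cd34* and *Vwf*, which the study used as markers of activated and platelet-biased HSCs. A sum is set mainly by the most abundant genes of its list. The sums ranged from 172 to 287 CPM in *Id2*+/+ and from 143 to 265 CPM in *Id2*Δ/Δ for 13 neutrophil markers, from 224 to 243 and from 217 to 289 CPM for 12 monocyte and macrophage markers, and from 1904 to 2014 and from 1774 to 1887 CPM for 10 erythroid markers. Those of 3 B-cell markers ranged from 37 to 41 and from 38 to 54 CPM, and those of 2 T and NK cell markers from 44 to 55 and from 43 to 59 CPM. No marker of these lists was at 3 reads or fewer in all 4 libraries. The part of these marker levels in the results for the 43 genes was not tested, and in bulk RNA fewer cells with a transcript cannot be told apart from less transcript per cell.

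**Figure D1:**
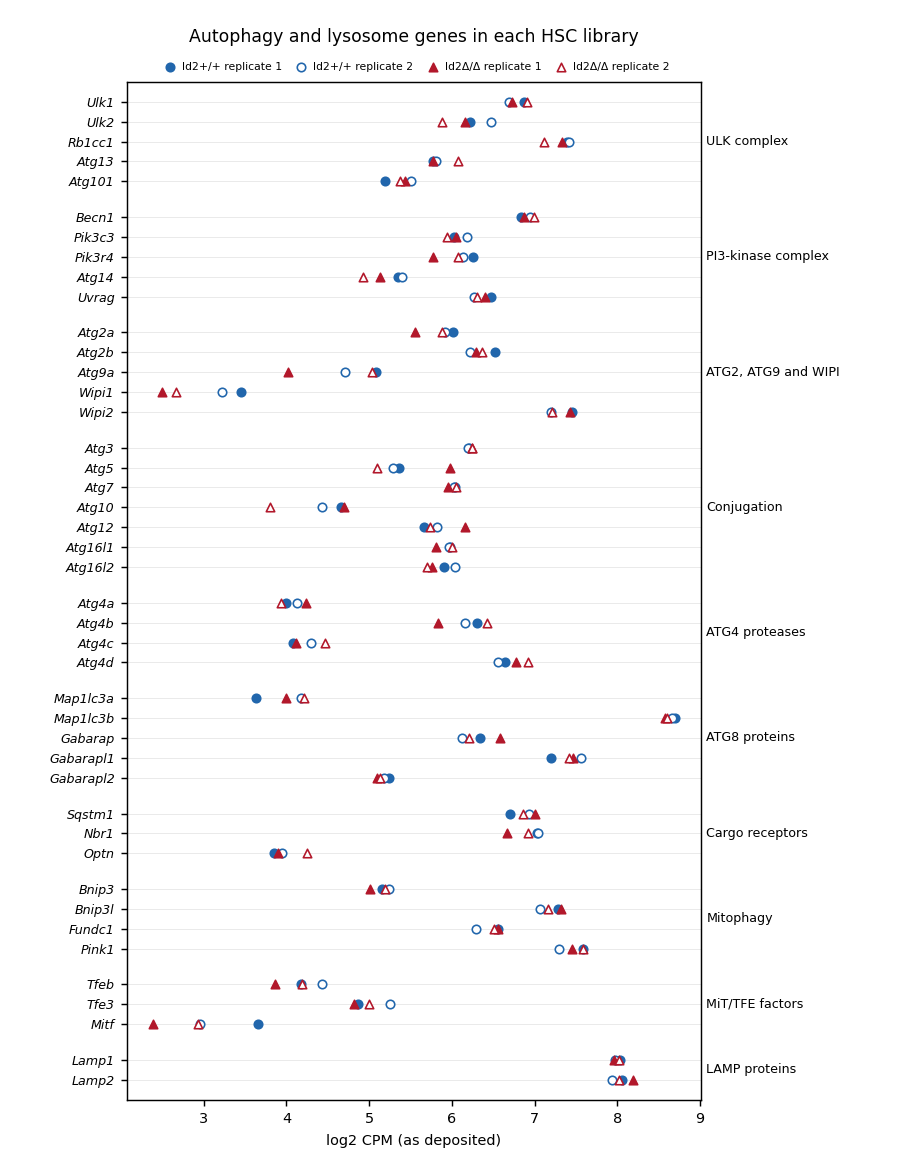
Deposited log2 CPM (x axis) of each of the 43 genes (rows, grouped by role) in the 4 libraries, with circles for *Id2*+/+, triangles for *Id2*Δ/Δ, filled symbols for replicate 1 and open symbols for replicate 2. The symbols of a gene mostly lie on top of each other, and in *Wipi1* the triangles lie clearly left of the circles.

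Genes of the ULK complex, the kinase that starts autophagy, were examined first, on the log2 CPM scale as for all library values that follow, with fold changes given as *Id2*Δ/Δ minus *Id2*+/+ and their standard errors (SE) from limma. *Ulk1* was 6.88 and 6.69 in *Id2*+/+ replicates 1 and 2 and 6.73 and 6.91 in *Id2*Δ/Δ replicates 1 and 2. *Ulk2*, its paralog, was 6.22 and 6.47 in *Id2*+/+ and 6.16 and 5.88 in *Id2*Δ/Δ libraries. Both *Id2*Δ/Δ values of *Ulk2* lay below both *Id2*+/+ values, whereas those of *Ulk1* overlapped. *Ulk2* had a log2 fold change of -0.33 (SE 0.16, 95% interval -0.71 to 0.06, adjusted p = 0.910, unadjusted p = 0.0842, limma), and *Ulk1* one of 0.03 (SE 0.14). *Rb1cc1*, which encodes the scaffold FIP200, was 7.39 and 7.41 in *Id2*+/+ and 7.33 and 7.11 in *Id2*Δ/Δ libraries. Its difference of -0.18 (SE 0.13) came without overlap and was set mainly by *Id2*Δ/Δ replicate 2, since it was -0.08 without that library. The adaptor *Atg13* was 5.77 and 5.81 against 5.77 and 6.07, and its partner *Atg101* was 5.20 and 5.51 against 5.44 and 5.37. Libraries overlapped for both, with log2 fold changes of 0.13 and 0.05.

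The PI3-kinase complex makes the lipid PI3P on the forming membrane. Its autophagy-specific subunit *Atg14* was 5.36 and 5.40 in *Id2*+/+ and 5.13 and 4.93 in *Id2*Δ/Δ HSCs. The groups did not overlap, and the log2 fold change was -0.35 (SE 0.17, 95% interval -0.75 to 0.05, adjusted p = 0.910, unadjusted p = 0.0778, limma), the second smallest p-value of the 43 genes. *Pik3r4*, the regulatory subunit VPS15, was 6.26 and 6.13 against 5.77 and 6.08, also without overlap, at -0.27 (SE 0.16). The catalytic subunit *Pik3c3*, *Becn1* (Beclin 1) and *Uvrag*, a subunit of the alternative endosomal complex, had overlapping libraries and log2 fold changes of -0.11, 0.04 and -0.01.

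*Wipi1* and *Wipi2* encode proteins that bind PI3P. *Wipi1* (ENSMUSG00000041895, chromosome 11 of GRCm38 from 109573331 to 109611967, minus strand) was 3.45 and 3.22 in *Id2*+/+ and 2.49 and 2.67 in *Id2*Δ/Δ libraries, which is 158 and 149 reads against 101 and 114. Both *Id2*Δ/Δ libraries were lower than both *Id2*+/+ libraries although they were sequenced more deeply. The log2 fold change was -0.75 (SE 0.30, 95% interval -1.45 to -0.06, adjusted p = 0.910, unadjusted p = 0.0371, limma). It was the 1 gene of the 43 with an unadjusted p-value under 0.05, where 2.95% of all tested genes had such a p-value and were lower and 1.72% had one and were higher. Leaving out each library in turn gave -0.87 to -0.64. Its unadjusted p-value stayed under 0.05 in 1 of these 4 fits, the one without *Id2*Δ/Δ replicate 2. *Wipi2* was 7.45 and 7.20 against 7.42 and 7.21, with overlap and a log2 fold change of -0.01 (SE 0.14).
The lipid transfer gene *Atg2a* was 6.01 and 5.91 against 5.55 and 5.89, without overlap and at -0.24 (SE 0.17), and its paralog *Atg2b* was at -0.04. *Atg9a*, which encodes the scramblase of the ATG9 vesicles, had the widest spread between *Id2*Δ/Δ replicates of all 43 genes, with 4.02 and 5.03, beside 5.08 and 4.71 in *Id2*+/+ libraries. Its log2 fold change of -0.37 (SE 0.33) was smaller than that spread, and turned from -0.88 to 0.13 depending on whether *Id2*Δ/Δ replicate 2 or replicate 1 was left out. All 5 genes of this step had a log2 fold change below 0, but *Atg2b* and *Wipi2* turned above 0 after correction for transcript length.

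The conjugation genes, whose products attach ATG12 to ATG5 and ATG8 proteins to lipid, were read next. *Atg3*, the E2-like enzyme for ATG8, was the tightest of the 43 genes, at 6.21 and 6.19 in *Id2*+/+ and 6.25 and 6.24 in *Id2*Δ/Δ libraries. The *Id2*Δ/Δ libraries lay above, but the difference was only 0.04 (SE 0.13, 95% interval -0.27 to 0.36). *Atg16l2* was 5.91 and 6.04 against 5.76 and 5.70, below without overlap, with a log2 fold change of -0.25 (SE 0.15), and *Atg16l1*, its paralog in the complex that places ATG8 proteins, was at -0.07 with overlap. The E1-like gene *Atg7* was at -0.03 (SE 0.14, 95% interval -0.36 to 0.29). *Atg5* was 5.36 and 5.29 in *Id2*+/+ libraries, but 5.98 and 5.10 in *Id2*Δ/Δ libraries, on either side of them. *Atg10*, the E2-like enzyme for ATG12, was 4.66 and 4.43 against 4.70 and 3.80. Both differed between *Id2*Δ/Δ replicates by more than between genotypes, so their log2 fold changes of 0.22 (SE 0.28) and -0.30 (SE 0.31) changed sign when an *Id2*Δ/Δ library was left out. *Atg12* was at 0.21 (SE 0.18).

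Of the ATG4 proteases, which trim ATG8 proteins and release them from lipid, *Atg4d* was the 1 gene without overlap. It was 6.65 and 6.55 in *Id2*+/+ and 6.78 and 6.92 in *Id2*Δ/Δ libraries, both above. Its log2 fold change was 0.25 (SE 0.13, 95% interval -0.05 to 0.55, adjusted p = 0.910, unadjusted p = 0.0937, limma), the largest positive value of the 43 genes. *Atg4a*, *Atg4b* and *Atg4c* overlapped between genotypes, with log2 fold changes of 0.03, -0.10 and 0.10. *Atg4b* was 5.84 and 6.43 in the *Id2*Δ/Δ libraries, again on either side of the *Id2*+/+ libraries.

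The ATG8 genes encode the proteins that coat the autophagosome and bind cargo receptors. *Map1lc3b* (LC3B) was 8.69 and 8.66 in *Id2*+/+ and 8.58 and 8.60 in *Id2*Δ/Δ libraries. Both *Id2*Δ/Δ libraries were lower, by a small margin that left a log2 fold change of -0.08 (SE 0.10, 95% interval -0.31 to 0.14). *Gabarapl2* was 5.24 and 5.18 against 5.10 and 5.14, at -0.09 (SE 0.16), also without overlap. *Gabarap* was 6.34 and 6.13 against 6.59 and 6.20, and *Gabarapl1* was 7.20 and 7.57 against 7.47 and 7.41. These overlapped, with log2 fold changes of 0.16 (SE 0.17) and 0.06 (SE 0.15). *Map1lc3a*, the least abundant ATG8 gene, was 3.63 and 4.18 against 3.999 and 4.21, which is 177 and 282 reads against 286 and 349. Its *Id2*+/+ replicates differed by 0.55, more than the difference of 0.20 (SE 0.26) between genotypes.
The cargo receptors link ubiquitinated cargo to ATG8 proteins. *Nbr1* was 7.03 and 7.05 in *Id2*+/+ and 6.67 and 6.92 in *Id2*Δ/Δ libraries, below without overlap, with a log2 fold change of -0.24 (SE 0.14, adjusted p = 0.910, unadjusted p = 0.113, limma). *Sqstm1* (p62) and *Optn* overlapped, at 0.11 (SE 0.14) and 0.17 (SE 0.24).

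The series concerns ID2 and HIF-1α, and the mitophagy genes include targets of HIF-1. *Bnip3* (chromosome 7 of GRCm38 from 138890836 to 138909519, minus strand) was 5.16 and 5.24 in *Id2*+/+ and 5.01 and 5.19 in *Id2*Δ/Δ libraries. The libraries overlapped, and the log2 fold change was -0.10 (SE 0.17, 95% interval -0.50 to 0.31). *Bnip3l* (NIX) was 7.28 and 7.06 against 7.32 and 7.16, at 0.07 (SE 0.13, 95% interval -0.24 to 0.38). On the linear scale these intervals run from 0.709-fold to 1.24-fold for *Bnip3* and from 0.845-fold to 1.30-fold for *Bnip3l*. *Fundc1*, a receptor on the outer mitochondrial membrane, was 6.56 and 6.30 against 6.55 and 6.51, at 0.10 (SE 0.15). *Pink1*, the kinase that marks damaged mitochondria, was 7.58 and 7.30 against 7.46 and 7.59, at 0.08 (SE 0.14). Libraries of all 4 mitophagy genes overlapped between genotypes. An annotated antisense gene, *Gm45507*, shares exon sequence with *Bnip3*, and strand use in counting is not given in the sources used here, so reads of the pair may be mixed.

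TFEB, TFE3 and MITF are basic helix-loop-helix factors that turn on lysosome and autophagy genes. *Tfeb* was 4.17 and 4.43 in *Id2*+/+ and 3.87 and 4.19 in *Id2*Δ/Δ libraries, *Id2*Δ/Δ replicate 2 lying between the *Id2*+/+ values. The log2 fold change was -0.27 (SE 0.23). *Tfe3* was 4.87 and 5.25 against 4.82 and 5.004, with overlap, at -0.15 (SE 0.20). *Mitf* was 3.65 and 2.95 against 2.39 and 2.93, or 179 and 124 reads against 94 and 136. Its *Id2*Δ/Δ values lay below both *Id2*+/+ values, by only 0.03 between *Id2*Δ/Δ replicate 2 and *Id2*+/+ replicate 2, and the *Id2*+/+ replicates themselves differed by 0.70. The log2 fold change of *Mitf* was -0.64 (SE 0.37, 95% interval -1.50 to 0.21, adjusted p = 0.910, unadjusted p = 0.120, limma) and became -0.29 when *Id2*+/+ replicate 1 was left out and -0.38 when *Id2*Δ/Δ replicate 1 was. All 3 genes had a log2 fold change below 0, *Tfe3* turning above 0 without *Id2*+/+ replicate 2, and none passed the unadjusted threshold.
*Lamp1* and *Lamp2*, the main glycoproteins of the lysosomal membrane, had small differences at high expression. *Lamp1* (chromosome 8 from 13159161 to 13175338, plus strand) was 8.03 and 7.98 in *Id2*+/+ and 7.96 and 8.02 in *Id2*Δ/Δ libraries, with a log2 fold change of -0.01 (SE 0.11, 95% interval -0.26 to 0.23). *Lamp2* was 8.06 and 7.94 against 8.19 and 8.02, at 0.10 (SE 0.12, 95% interval -0.17 to 0.37).

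**Figure D2:**
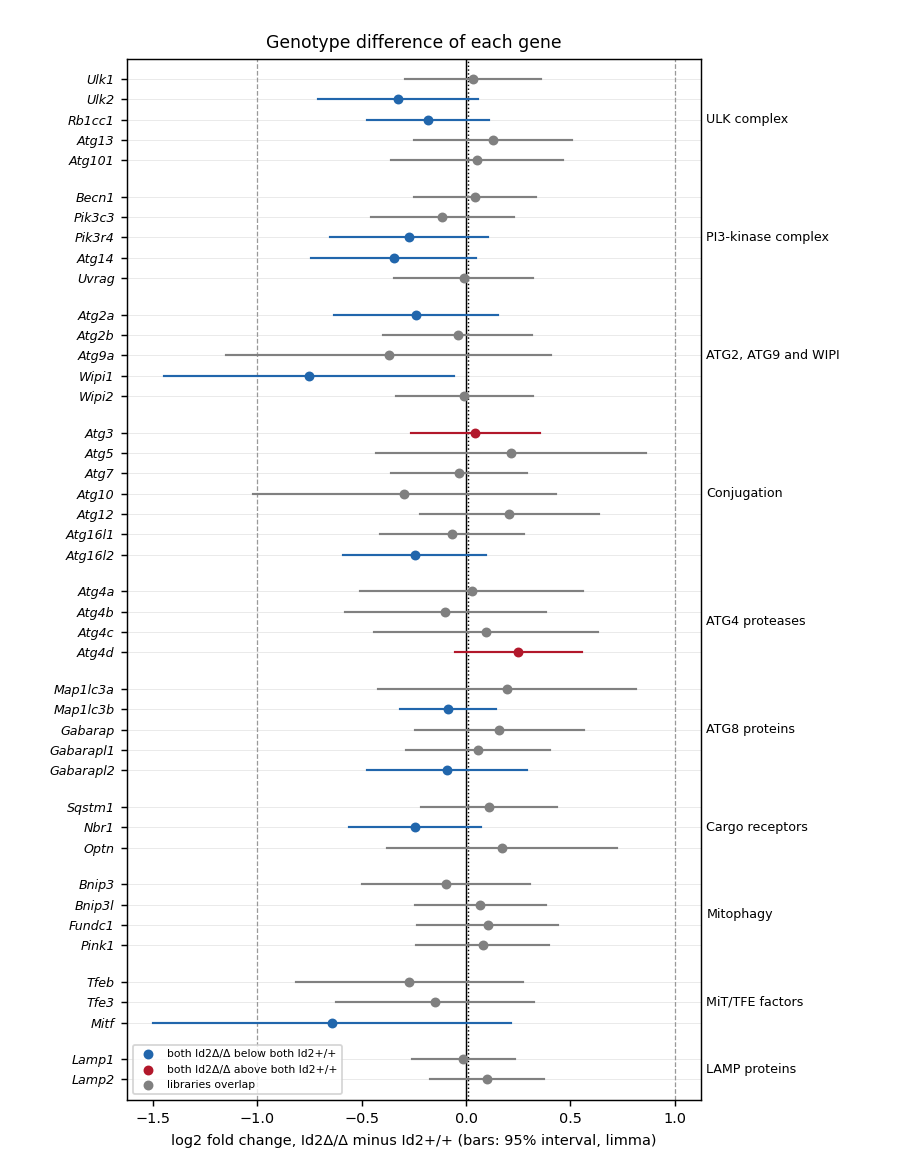
Log2 fold change (x axis, *Id2*Δ/Δ minus *Id2*+/+) of each of the 43 genes with its 95% interval from limma (bars), colored by whether the libraries of the genotypes overlap; the dotted line is the median of all tested genes and the dashed lines are at -1 and 1. Of the 43 intervals, 39 lie between -1 and 1 and only that of *Wipi1* leaves out 0.

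In 2 of the 43 genes (4.65%), *Atg3* and *Atg4d*, the *Id2*Δ/Δ values were both above the *Id2*+/+ values, as they were in 19% of all tested genes. In 11 genes (25.6%) both lay below, as in 15.8% of all tested genes. The 11 were *Ulk2*, *Rb1cc1*, *Pik3r4*, *Atg14*, *Atg2a*, *Wipi1*, *Atg16l2*, *Map1lc3b*, *Gabarapl2*, *Nbr1* and *Mitf*, and they come from 7 of the 10 roles, with no gene of the ATG4, mitophagy or LAMP groups among them. Since the values of these 13 genes do not overlap, leaving out a library cannot change the sign of their fold change and can only change its size.
Transcript length moved with this count. Over all tested genes, the Spearman correlation of the longest transcript's length with the log2 fold change was -0.21 (n = 15855 genes, which share the same 4 libraries), and over the 43 genes it was -0.34. The 43 genes have a median length of 3604 bases, beside 2955 bases over all tested genes. After a correction of each library for length, 8 genes lay below without overlap, beside 13.5% of all tested genes, and 4 lay above (*Atg13*, *Becn1*, *Atg3* and *Atg4d*), beside 20.6%. *Ulk2*, *Rb1cc1* and *Atg2a* then overlapped. After the correction *Wipi1* and *Atg4d* had unadjusted p-values under 0.05 in limma, of which only that of *Atg4d* stayed there when the replicate number was added as a term, and 0 of the 43 had an adjusted one in either fit.

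**Figure D3:**
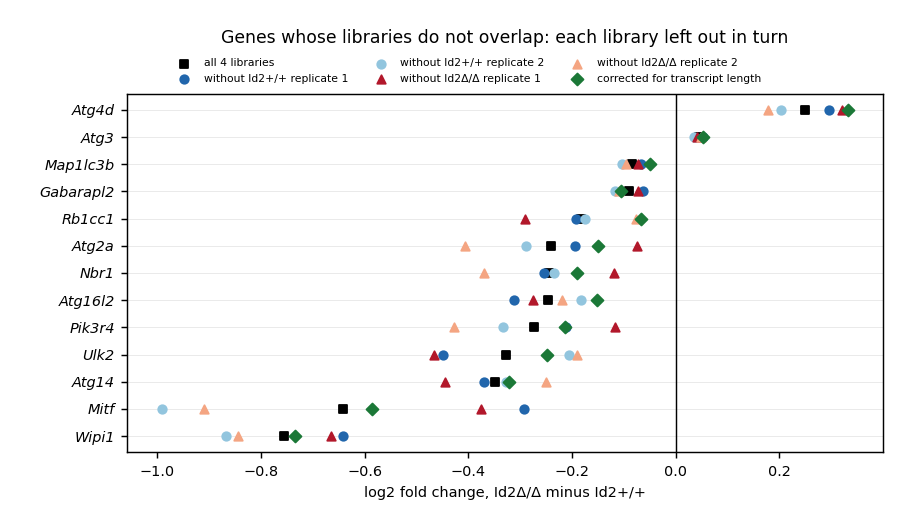
Log2 fold changes (x axis, *Id2*Δ/Δ minus *Id2*+/+) of the 13 genes whose libraries do not overlap, with all 4 libraries (black squares), with each library left out (other colors) and after correction for transcript length (green diamonds). The side of 0 is fixed by the choice of these genes, and the size differs by library, most in *Mitf*, which spreads from -0.99 to -0.29.

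Standard errors were smaller for these genes than over all tested genes, a trait shared by the 7 further lists of pathway genes described below. The median standard error of the log2 fold change was 0.16 over the 43 genes and 0.22 over all tested genes, and 39 of the 43 intervals (90.7%) lay within -1 and 1, beside 65.0% of all tested genes. In the 7 lists the median standard errors were 0.15 to 0.17, and 87.0% to 97.1% of intervals lay within -1 and 1. The 43 genes were also more highly expressed, with a median of 6.05 log2 CPM beside 4.76. The part of expression level in the precision was not tested. An absolute log2 fold change under 0.25 was found in 34 of the 43 (79.1%) and in 62.4% of all tested genes. Replicates differed by a median of 0.16 in *Id2*+/+ and 0.19 in *Id2*Δ/Δ libraries for the 43 genes, and by more than 0.5 in *Id2*Δ/Δ libraries for 5 of them (11.6%, beside 29.0% of all tested genes).

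Within gene families, levels were compared per length, as log2 CPM per kilobase of the longest transcript and again with the length of all annotated exons. *Lamp1* had the highest level per length of the 43 genes, 6.84, followed by *Map1lc3b* at 6.58 and *Gabarapl1* at 6.55, and *Mitf* the lowest, 0.69, below *Wipi1* at 1.22. Among ATG8 genes, *Map1lc3b* was 6.64-fold above *Map1lc3a* per length (3.88-fold with all exons), *Gabarapl1* was 1.59-fold above *Gabarap*, and *Gabarap* was 2.75-fold above *Gabarapl2*, each in 4 of 4 libraries. *Map1lc3b* and *Gabarapl1* could not be ordered, since *Map1lc3b* was higher in 2 of 4 libraries with the longest transcript and in 0 of 4 with all exons.
*Wipi2* was 13.3-fold above *Wipi1* (8.61-fold with all exons), *Bnip3l* 2.24-fold above *Bnip3* (2.44-fold), *Ulk1* 1.69-fold above *Ulk2* (1.41-fold) and *Lamp1* 1.56-fold above *Lamp2* (3.43-fold), in 4 of 4 libraries by both lengths. *Tfe3* was 3.09-fold above *Mitf* (2.68-fold) in 4 of 4 libraries, so *Mitf* was the least expressed of the 3 factors by either length. The order of *Tfeb* and *Tfe3*, of *Atg2a* and *Atg2b* and of *Atg16l1* and *Atg16l2* turned with the choice of length. *Atg4d* and *Atg4b* were 1.02-fold apart with the longest transcript, *Atg4d* being higher in 1 of 4 libraries, whereas with all exons *Atg4d* was 1.66-fold above *Atg4b* in 4 of 4 libraries. Of the 43 genes, 13 share exon sequence with another gene of the table, among them *Lamp1* with *Grtp1*, *Map1lc3b* with *Zcchc14*, *Atg4d* with *Kri1* and *Atg16l2* with *Fchsd2*, and pseudogenes of *Bnip3l* and *Atg4a* have rows of their own, so the levels of these genes are less certain.

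**Figure D4:**
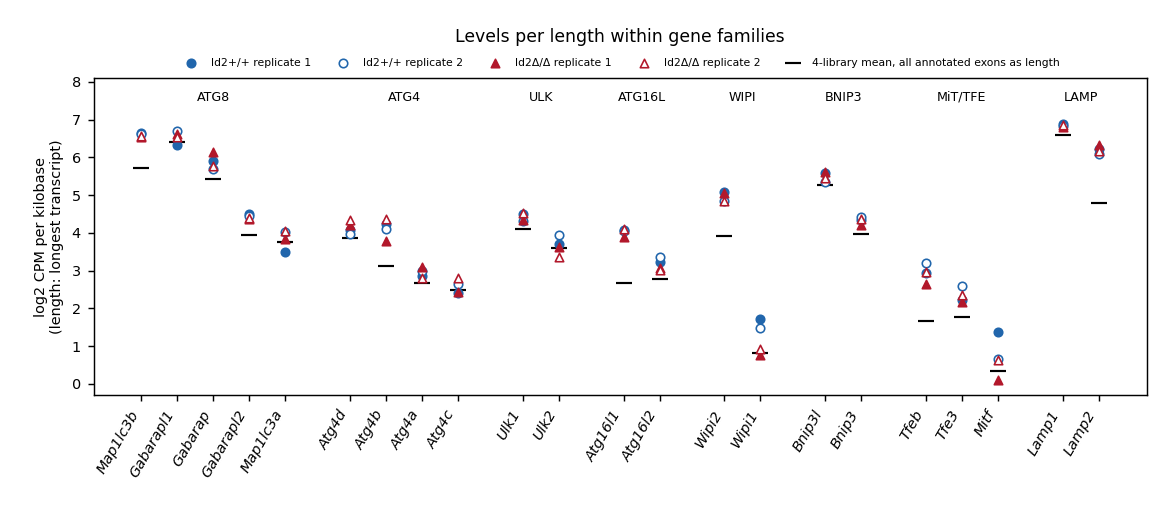
Log2 CPM per kilobase (y axis, length of the longest transcript) of paralogs in 8 families, with circles for *Id2*+/+ and triangles for *Id2*Δ/Δ libraries; black bars give the 4-library mean when all annotated exons are taken as the length. Gaps between paralogs such as *Wipi2* and *Wipi1* exceed the gaps between genotypes, and the bars show where an order depends on the length used.

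The other genes of the pathway were read from 7 lists. With limma and Benjamini-Hochberg adjustment 0 genes of these lists had an adjusted p-value under 0.05. The 21 other core autophagy genes had a median log2 fold change of -0.16, with 5 higher. In 9 of them (42.9%) both *Id2*Δ/Δ libraries lay below, among them *Epg5*, which tethers autophagosomes to lysosomes (-0.28), *Tecpr2* (-0.34), *Ambra1*, a partner of Beclin 1 (-0.23), and *Trp53inp2* (-0.47), and in 1, *Wdr45*, both lay above (0.14), beside 15.8% below and 19% above over all tested genes. After correction for transcript length the median was -0.03, beside 0.033 over all tested genes. Then 4 genes (19.0%) lay below, beside 13.5% of all tested genes. The longest transcripts of this list have a median of 4420 bases.
Of 25 other genes of mitophagy and mitochondrial dynamics, 18 were higher, with a median of 0.13, and in 7 both *Id2*Δ/Δ libraries lay above and in 1, the phosphatase *Pgam5* (-0.33), below, where 19% and 15.8% of all tested genes lay above and below. The 7 included *Mff* (0.24) and *Mief2* (0.35), which recruit the fission enzyme DRP1, *Phb2* (0.22), *Vdac1* (0.25) and *Fundc2* (0.32). None of the 25 had an unadjusted p-value under 0.05 in limma. The median was 0.13 after the length correction as well, beside 0.033 over all tested genes, and 0.06 to 0.10 with any library left out.

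Of 24 listed genes for the V-ATPase, the pump that acidifies the lysosome, 18 were tested and 14 were higher, with a median of 0.08. The counts without overlap that follow stand beside the same 19% above and 15.8% below over all tested genes. They were 6 above and 1 below for the V-ATPase. Of 48 lysosomal enzymes 23 were higher, with a median of -0.02, 11 above and 6 below. Of 28 genes for lysosomal membrane proteins and sorting 19 were higher, with a median of 0.05, 6 above and 4 below. Regulators of mTORC1 and AMPK (34 genes) had a median of -0.01 with 6 above and 4 below. The fusion machinery (23 genes) had a median of 0.00237 with 5 above and 1 below. Its count below was 4 after median-ratio rescaling, where the median was -0.011, and 0 after the length correction.
Of the 197 genes tested in these lists, 4 had an unadjusted p-value under 0.05, 2 higher (1.02%, beside 1.72% of all tested genes) and 2 lower (1.02%, beside 2.95%), and the libraries of all 4 did not overlap. *Prkab2*, a regulatory subunit of the energy sensor AMPK, was 4.74 and 4.38 in *Id2*+/+ and 2.56 and 3.82 in *Id2*Δ/Δ libraries, a log2 fold change of -1.37 (SE 0.41, adjusted p = 0.910, unadjusted p = 0.0110, limma). The *Id2*Δ/Δ libraries differed widely from each other, and the value was -0.74 without *Id2*Δ/Δ replicate 1. *Ctns*, the cystine exporter of the lysosome, was 4.24 and 3.94 against 4.98 and 4.54, at 0.67 (SE 0.24, adjusted p = 0.910, unadjusted p = 0.0246, limma). *Sumf1*, which activates lysosomal sulfatases, was 4.02 in both *Id2*+/+ libraries against 4.78 and 4.38, at 0.56 (SE 0.23, adjusted p = 0.910, unadjusted p = 0.0408, limma). *Sort1*, a sorting receptor for lysosomal enzymes, was 7.04 and 7.03 against 6.74 and 6.77, at -0.28 (SE 0.12, adjusted p = 0.910, unadjusted p = 0.0476, limma), with close replicates in both genotypes.

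**Figure D5:**
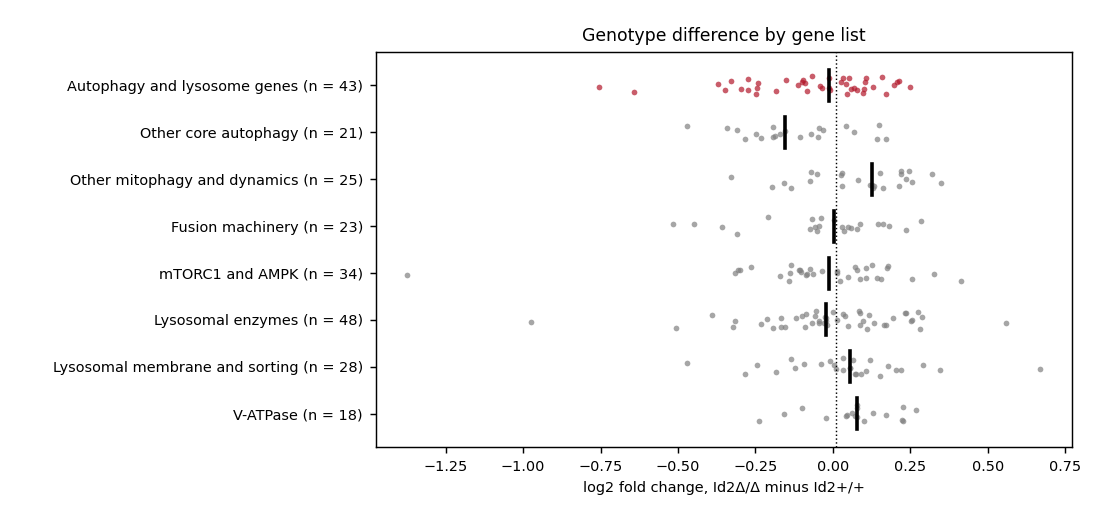
Log2 fold change (x axis, *Id2*Δ/Δ minus *Id2*+/+) of the autophagy, mitophagy and lysosome genes (red, 43 genes) and of 7 further lists (gray), 1 point for each gene, with list medians as vertical bars and the median of all tested genes as a dotted line. The 43 genes and most lists are centered near 0, and *Prkab2* is the single point below -1.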

How the data were processed

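Bulk RNA-Seq was analysed for 4 libraries of sorted mouse HSCs, 2 for each genotype (*Id2*+/+ and *Id2*Δ/Δ). The authors deposited log2 CPM values for 19354 genes, whose columns were quantile-normalized (the 4 sorted columns differ by less than 0.1 in 88.4% of ranks); the unit was read from the values. The labels list CASAVA 1.8.4, Trimmomatic 0.30, TopHat2 2.0.8, RSEM and STAR and the builds mm9 and NCBIM37, with no role for each. The gene identifiers, however, matched GENCODE M21 on GRCm38 for 99.7% of genes (82.0% with the same version), and coordinates and lengths are those of that annotation. How multi-mapped reads and strand were treated is not given in the sources used here.

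The values entered the fit without a pseudocount. A mean of 1 CPM or more was required, which kept 15895 genes. The test was that of limma (version 3.58.1, R version 4.3.3, lmFit and eBayes with trend), with a model of genotype alone and two-sided p-values. P-values were adjusted over all of these genes by the Benjamini-Hochberg method, with a threshold of 0.05. The fit was tested on simulated data in which 200 of 15895 genes were changed. Values were drawn from normal distributions, with gene variances taken from the prior that limma fitted and equal in both genotypes. Such data meet the assumptions of the test. The counts need not hold for the real libraries, whose replicates correlated at 0.972 for *Id2*+/+ and 0.942 for *Id2*Δ/Δ. With a log2 change of 1 the fit called 55 of the 200 and 5 unchanged genes. With a log2 change of 2 it called 132 of the 200 and 8 unchanged genes, so many real changes of these sizes would be missed. Below 32 CPM, the rank of a distinct value gave whole reads. Reads above that level were not recovered, so no count model was run, and p-values measure the spread between these libraries only.

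The members and lists were chosen with earlier results of these data known. Library values were printed for genes with an unadjusted p-value under 0.05, for the 8 smallest p-values among genes without overlap, and for the ULK, ATG8, mitophagy, TFEB/TFE3/MITF and LAMP genes; others were shown after their values were seen. From the further lists, genes with an unadjusted p-value under 0.05 and no overlap were named, and the other names were chosen after their values were seen. Alternatives varied the scaling, pseudocount, filter, trend, robust variance, threshold, replicate number, transcript length (a natural spline with 5 degrees of freedom) and libraries. Those for the lists, the overlap counts and the exon length were added after seeing the data.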

Additional observations from a re-analysis of the deposited data

How the results depend on the processing

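None of the 43 genes had an adjusted p-value under 0.05 (limma) in any of the 14 alternatives, which varied the scaling, the pseudocount, the filter, the replicate term, the length correction, the trend, the variance estimate, the threshold and the libraries. Of the genes tested, 1 was called under the replicate block and 1 under the length correction with the replicate block. In both it was *C130089K02Rik*, outside the naming rule, with log2 fold changes of -1.61 and -1.50. Numbers 1 and 2 occur in both genotypes, yet no label ties them to an experiment. Deviations from the genotype means correlated at 0.0592 between libraries of equal number (all tested genes), and no pairing was assumed. Neutrophil marker sums were, however, higher in replicate 1 of both genotypes (287 and 172 CPM in *Id2*+/+, 265 and 143 CPM in *Id2*Δ/Δ replicates 1 and 2). The monocyte, erythroid, megakaryocyte and T and NK sums were also higher in replicate 1 of both, and the HSC and B-cell sums were not. Whether libraries of equal number share a source was not tested. Unadjusted p-values under 0.05 depended on the libraries. There was 1 such gene of the 43 with all 4 libraries (*Wipi1*), 8 including *Wipi1* when *Id2*Δ/Δ replicate 2 was left out, 5 without *Wipi1* when replicate 1 of that genotype was and 0 without either *Id2*+/+ library. *Wipi1* and *Mitf* were not tested with a filter of 10 CPM. The median log2 fold change of the 43 genes was -0.056 to -0.0070 with each library left out and 0.0081 under the length correction, with and without the replicate block. Under that correction the median over all tested genes was 0.033, beside 0.011 in the main fit, so values moved up in general. The correction also turned *Uvrag* (0.052), *Atg2b* (0.075), *Wipi2* (0.056) and *Lamp1* (0.00083) above 0, with and without the block. The cause was not tested.

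Leaving out each library in turn kept the sign of 18 of the 43 genes, 13 of which could not change it because their libraries do not overlap, and changed it in 25. Among upstream genes, the range was -0.061 to 0.13 for *Ulk1*, -0.021 to 0.28 for *Atg13*, -0.10 to 0.21 for *Atg101*, -0.015 to 0.10 for *Becn1* and -0.11 to 0.089 for *Uvrag*. It was -0.19 to 0.11 for *Atg2b*, -0.88 to 0.13 for *Atg9a* and -0.13 to 0.11 for *Wipi2*. Among conjugation genes, it was -0.23 to 0.66 for *Atg5*, -0.083 to 0.015 for *Atg7*, -0.74 to 0.15 for *Atg10*, -0.00063 to 0.41 for *Atg12* and -0.16 to 0.030 for *Atg16l1*. For proteases it was -0.12 to 0.17 (*Atg4a*), -0.39 to 0.20 (*Atg4b*) and -0.078 to 0.27 (*Atg4c*). For ATG8 genes and *Sqstm1* it was -0.078 to 0.47 (*Map1lc3a*), -0.033 to 0.35 (*Gabarap*), -0.12 to 0.24 (*Gabarapl1*) and -0.0073 to 0.22 (*Sqstm1*). For the remaining genes it was -0.040 to 0.18 (*Bnip3l*), -0.030 to 0.24 (*Fundc1*), -0.063 to 0.22 (*Pink1*), -0.34 to 0.040 (*Tfe3*) and -0.040 to 0.014 (*Lamp1*).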

Other observations

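The replicate libraries of the genotypes were not equally close. The correlation of a library with its replicate (Pearson's r across tested genes, which are no independent points) was 0.972 for *Id2*+/+ and 0.942 for *Id2*Δ/Δ, and the 4 pairs of libraries from different genotypes gave 0.9503 to 0.9640. Among the 43 genes, *Atg9a*, *Atg4b* and *Mitf* were lower in *Id2*Δ/Δ replicate 1 than in replicate 2 by more than 0.5 on the log2 scale, and *Atg5* and *Atg10* were higher there by 0.88 and 0.90. In the *Id2*+/+ libraries such a gap was found in *Map1lc3a* and *Mitf* (4.65% of the 43 genes, beside 18.0% of all tested genes). *Mitf* is thus the 1 gene of the 43 with replicates that far apart in both genotypes.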
